A study of Triticum aestivum with 6 samples.

Results

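Small heat shock protein genes were followed in developing wheat grain through 3 gene symbols, HSP16.9A, HSP16.9B and HSP21. They were chosen by symbol, as 3 of the 102602 gene identifiers of a count table, and all 3 passed the filter on low counts. RNA had been sequenced from inferior grains, the later-set and less filled grains of a spike, of field-grown bread wheat (Triticum aestivum) cultivar Xinong 538. The titles of the samples named 2 groups of 3 libraries, SPD and CK, without spelling out either name. The same treatment text, naming exogenous spermidine (a polyamine), stood on SPD and CK samples alike, so that the labels do not say in words which group received it. All 6 samples also shared one stage entry that named days 8 and 16 after anthesis, and stage could not be separated. Nothing in the labels states that the libraries of a group are from different plots or plants. The p-values therefore measure only how far these libraries differ, which may be a technical matter.

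Small heat shock proteins are chaperones that work without ATP. They bind proteins that begin to unfold, mostly in heat, and hold them until ATP-driven chaperones of the HSP70 and HSP100 families refold them. Plants have separate classes for separate compartments. Class I proteins such as HSP16.9 act in the cytosol, and HSP21 is encoded in the nucleus and imported into plastids, where in Arabidopsis it protects photosynthetic and other plastid proteins under heat. Their genes are known for strong induction by heat through heat shock factors, and several are also expressed in maturing seeds without heat.

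The libraries held 10561224 to 12984627 counts in SPD and 11070027 to 13088727 counts in CK. SPD replicate 3 differed most from the rest. It lay at 140 on the first principal component, which held 35.4% of the variance, against -42.6 to -20.7 for the others. Summed levels of the 7 endosperm markers (starch synthesis, puroindoline and storage protein genes) were 14003 to 18046 CPM (counts scaled to a common library total) in SPD and 15030 to 15759 CPM in CK, scaled by library size alone, and none was at 0 counts in any library. On the same scale the 6 green pericarp markers, which are photosynthesis genes, summed to 624, 438 and 877 CPM in SPD replicates 1 to 3, against 449, 552 and 429 CPM in CK replicates 1 to 3. The 3 embryo and aleurone markers summed to 99.5, 126 and 106 CPM in SPD replicates 1 to 3, against 150.4, 154 and 124 CPM in CK replicates 1 to 3. PER1 alone made up 97.6% to 99.4% of that sum, EM, a gene of late embryogenesis, had 0 counts in all 6 libraries, and AMY1.1, an alpha-amylase, had 29, 18 and 10 counts in SPD, against 11, 17 and 36 counts in CK, in another order of libraries. In bulk grain, fewer cells of a type and less RNA per cell cannot be told apart.

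None of the 3 small heat shock protein genes passed the test between SPD and CK. All 3 had lower mean levels in SPD, but in each gene the values of SPD replicate 2 lay among or above those of CK while SPD replicates 1 and 3 were the 2 lowest of the 6 libraries. Over all genes tested, edgeR's quasi-likelihood test with Benjamini-Hochberg adjustment called 0 of 50136 (0.0%), and 1800 (3.59%) had an unadjusted p under 0.05, none of them a small heat shock protein gene. The Wald test of DESeq2 called 3 of 72846 genes (0.00412%) and had 2.6% at an unadjusted p under 0.05, and none of either was a small heat shock protein gene. Without CK replicate 3 edgeR called 1 gene (0.00192%), again not one of the 3. A negative log2 fold change, as in all 3 genes, was found in 49.3% of the genes tested. The median log2 fold change of the 3 genes was -0.66, beside 0.0048 over all genes tested. The SPD and CK values overlapped in all 3 genes, and they did not overlap in 9.48% of the genes tested. That SPD replicates 1 and 3 were the 2 lowest libraries was noticed after the values were seen, and held in 10.2% of the genes tested. SPD replicate 3 was the lowest library in all 3 genes, and in 23.2% of the genes tested.

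**Figure D1:**
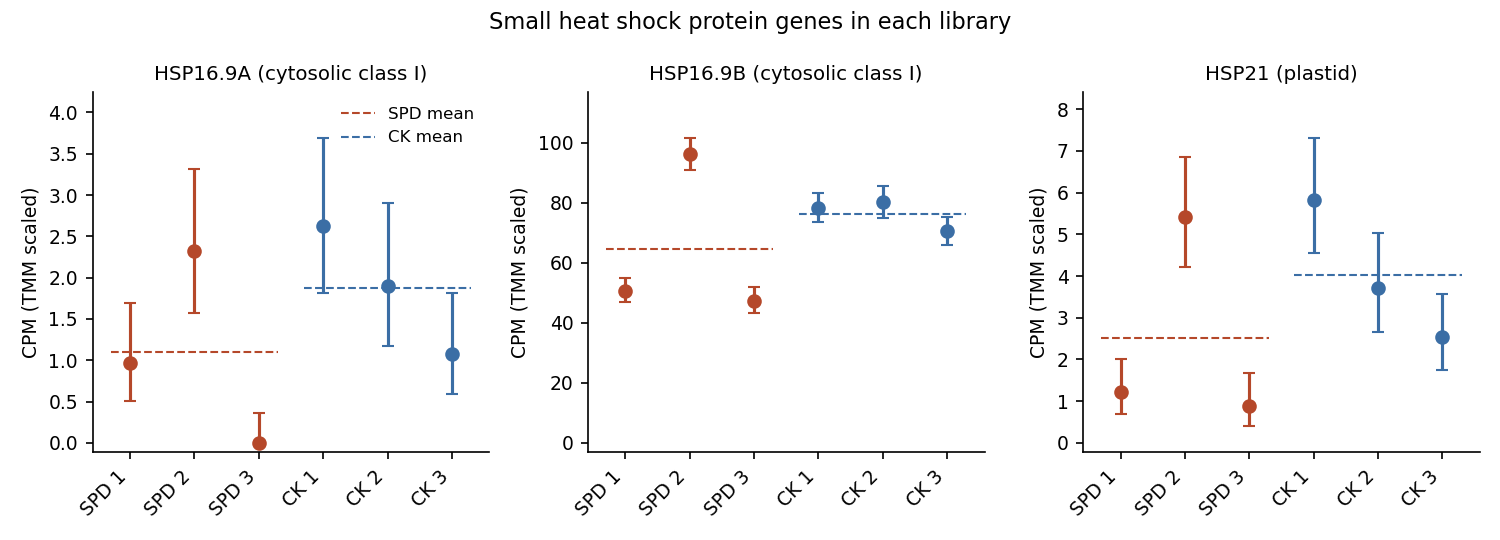
Level of each gene in the 6 libraries, in CPM scaled by TMM on a linear axis for each gene, with SPD libraries in red and CK libraries in blue. Points are single libraries, bars are exact 95% Poisson intervals of their counts (counting error only) and dashed lines are group means (n = 3). In all 3 panels SPD replicates 1 and 3 lie lowest and SPD replicate 2 lies within or above the CK values.

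HSP16.9B encodes a cytosolic class I protein whose oligomer is known from a crystal structure, and it gave most of the counts of the 3 genes. It had 627, 1243 and 485 counts in SPD replicates 1 to 3, against 984, 886 and 914 counts in CK replicates 1 to 3. Scaled by TMM, the normalisation of edgeR for library composition, these were 50.8, 96.2 and 47.4 CPM in SPD, against 78.4, 80.3 and 70.5 CPM in CK. SPD replicate 2 was the highest of the 6 libraries, the 3 CK libraries lay close together below it, and SPD replicates 1 and 3 lay lowest. The exact 95% Poisson interval of SPD replicate 2, 91.0 to 101.7 CPM, lay above those of the other libraries. The intervals of SPD replicates 1 and 3, 46.9 to 54.9 and 43.3 to 51.8 CPM, overlapped each other and lay below those of the CK libraries. Such intervals cover counting error only.

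The mean level of HSP16.9B was 64.8 ± 27.3 CPM in SPD and 76.4 ± 5.18 CPM in CK (SD, n = 3 each). The log2 fold change was -0.24 (SE 0.23, edgeR adjusted p = 0.997), which is 0.849-fold with a 95% interval of 0.595-fold to 1.21-fold. The interval leaves out a fall to 0.5-fold and includes no change. The sign held and the size did not when single libraries were left out. Without SPD replicate 2 the log2 fold change was -0.64, without SPD replicate 1 it was -0.087 and without SPD replicate 3 it was -0.054.

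The SPD libraries differed among themselves far more than the CK libraries did. The coefficient of variation of HSP16.9B was 42.1% in SPD and 6.78% in CK. Among the 2282 tested genes averaging 50 to 100 CPM, to which HSP16.9B belongs, the median coefficient of variation was 12.1% in SPD and 7.94% in CK. The 90th percentile of these genes was 27.5% in SPD, so that HSP16.9B varied more in SPD than at least 90% of the genes at its level, and 15.8% in CK. The difference in spread between the groups was not tested.

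HSP16.9A encodes the other cytosolic class I protein and was detected by few counts. It had 12, 30 and 0 counts in SPD replicates 1 to 3, against 33, 21 and 14 counts in CK replicates 1 to 3. In CPM these were 0.972, 2.32 and 0 in SPD, against 2.63, 1.90 and 1.08 in CK. CK replicate 1 and SPD replicate 2 were highest, with Poisson intervals of 1.81 to 3.69 and 1.57 to 3.32 CPM that overlapped, and SPD replicate 3 held no count. A count of 0 in SPD replicate 3 allows a level of up to 0.293 CPM by the limit of 3 counts, and of up to 0.361 CPM by the exact two-sided interval. Against the floor of 3 counts per library, the level in SPD replicate 2 was 7.92-fold higher. This ratio leaves out the counting error of the 30 counts in SPD replicate 2, and the limit of 0.361 CPM would give a smaller one.

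The mean level of HSP16.9A was 1.1 ± 1.17 CPM in SPD and 1.87 ± 0.776 CPM in CK (SD, n = 3 each), with a log2 fold change of -0.73 (SE 0.86, edgeR adjusted p = 0.997). The 95% interval of 0.161-fold to 2.26-fold takes in changes beyond 2-fold on either side. Counts of the SPD libraries differed by a chi-square of 13.5 per degree of freedom from equal shares of their totals and those of the CK libraries by 4.26. The fitted value depended on the method, as limma-voom gave -1.63 and the Wald test of DESeq2 gave -0.75. The part of the library without a count in this difference was not tested. Without SPD replicate 3 the log2 fold change was -0.18, without SPD replicate 2 it was -1.87 and without CK replicate 1 it was -0.41. One entry of the RefSeq gene table of IWGSC CS RefSeq v2.1 carries hsp16.9A as a synonym. It is a protein-coding gene on an unplaced sequence. HSP16.9B and HSP21 were not matched there.

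Within class I, the share of the counts that fell to HSP16.9A had overlapping intervals in 5 libraries and was lower in SPD replicate 3. It was 1.88%, 2.36% and 0% in SPD replicates 1 to 3, of 639, 1273 and 485 counts, against 3.24%, 2.32% and 1.51% in CK replicates 1 to 3, of 1017, 907 and 928 counts. The exact Clopper-Pearson 95% intervals of SPD replicates 1 and 2 overlapped those of all 3 CK libraries. A count of 0 of 485 allows a share of up to 0.619% by the limit of 3 counts, and of up to 0.758% by the exact two-sided interval. Each of these limits lay below the lowest lower bound of the other 5 libraries, 0.827% in CK replicate 3. Over the whole groups HSP16.9A took 1.75% of the class I counts in SPD (1.27% to 2.36%) and 2.38% in CK (1.86% to 3.01%). Class I genes have closely similar coding sequences, and the counts do not show how reads shared by such copies were assigned, so that this split is uncertain.

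HSP21 is the plastid member, and it varied more between libraries than HSP16.9B did. It was also far scarcer, and scarcer genes spread more. In SPD the median coefficient of variation was 35.2% for genes of 1 to 5 CPM, against 12.1% for genes of 50 to 100 CPM. HSP21 had 15, 70 and 9 counts in SPD replicates 1 to 3, against 73, 41 and 33 counts in CK replicates 1 to 3. In CPM these were 1.22, 5.42 and 0.880 in SPD, against 5.82, 3.71 and 2.55 in CK. CK replicate 1 and SPD replicate 2 were highest, as in HSP16.9A, and their Poisson intervals of 4.56 to 7.32 and 4.22 to 6.85 CPM overlapped. SPD replicate 3 lay lowest with 0.402 to 1.67 CPM, below the interval of the lowest CK library, CK replicate 3, which was 1.75 to 3.58 CPM. The interval of SPD replicate 1 reached 2.0 CPM and overlapped that of CK replicate 3.

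The mean level of HSP21 was 2.50 ± 2.53 CPM in SPD and 4.03 ± 1.66 CPM in CK (SD, n = 3 each), a log2 fold change of -0.66 (SE 0.61, edgeR adjusted p = 0.997). The 95% interval ran from 0.25-fold to 1.6-fold. Within SPD, replicate 2 was 6.16-fold above replicate 3 and 4.46-fold above replicate 1. Within CK, replicate 1 was 2.29-fold above replicate 3. The log2 fold change was -1.93 without SPD replicate 2, -0.33 without SPD replicate 1, -0.27 without SPD replicate 3 and -0.30 without CK replicate 1.

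The spread of HSP21 and HSP16.9A within SPD was also large for genes of their level. Their coefficients of variation were 101% and 106% in SPD and 41.2% and 41.5% in CK. The 19550 tested genes with a mean of 1 to 5 CPM had a median of 35.2% and a 90th percentile of 73.6% in SPD, and a median of 29.9% and a 90th percentile of 60.3% in CK. In SPD both genes lay above the 90th percentile, and in CK both lay between the median and the 90th percentile. The biological coefficient of variation that edgeR estimated for each gene over both groups was 67.7% for HSP16.9A, 21.6% for HSP16.9B and 50.6% for HSP21. The trend at their abundance was 45.7%, 16.0% and 33.4% in the same order.

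**Figure D2:**
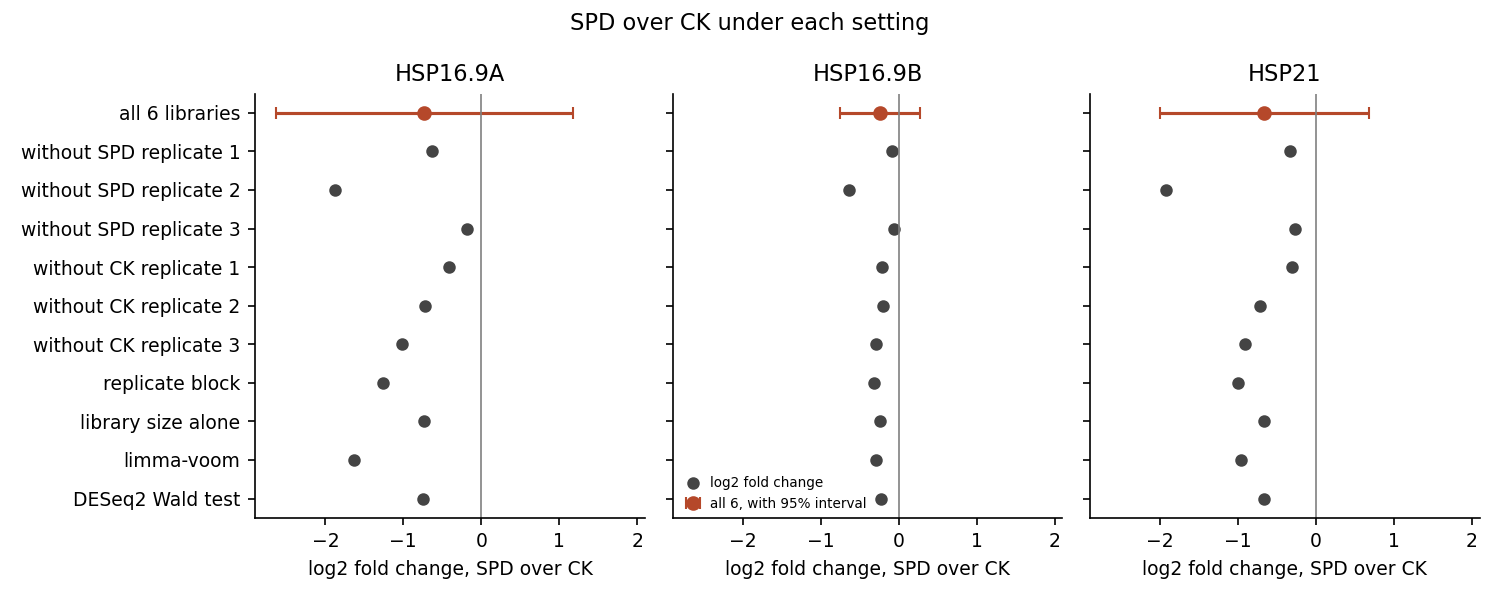
Log2 fold change of SPD over CK for each gene with all 6 libraries (red, with its 95% interval from edgeR) and under other settings (grey points, from the top: 1 library left out at a time, the replicate number as a block, library size alone, limma-voom and the Wald test of DESeq2). Every point lies below 0, and the points without SPD replicate 2 lie farthest from it, at -1.87, -0.64 and -1.93 for HSP16.9A, HSP16.9B and HSP21.

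The values turned most on SPD replicate 2. Without it, the unadjusted p of edgeR was 0.0008 for HSP16.9B, 0.0038 for HSP21 and 0.0952 for HSP16.9A, and the adjusted p values were 0.498, 0.514 and 0.692. In that fit 4033 genes (7.76%) had an unadjusted p under 0.05 and none was called. The labels give no reason to leave that library out. On the first principal component it lay at -42.6, beside -28.7 to -20.7 in CK and SPD replicate 1, and 140 in SPD replicate 3. In counts of whole libraries, SPD replicate 2 was nearer to each CK library than to the other SPD libraries. Divided by its degrees of freedom, the chi-square was 5.21, 5.76 and 4.12 against CK replicates 1 to 3. Against SPD replicates 1 and 3 it was 6.70 and 16.4. SPD replicate 1 was likewise nearer to CK replicates 2 and 3, at 6.54 and 6.13, than to SPD replicate 2. Against CK replicate 1 it was 7.02. Nearness to CK in whole libraries was thus not particular to SPD replicate 2, unlike in the heat shock genes.

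The plastid gene was set against the class I genes within each library. HSP16.9A gave only 0% to 3.24% of the class I counts, so the shares and ratios mainly set HSP21 against HSP16.9B. They do not show a difference between the plastid and cytosolic classes, since HSP16.9A put the libraries in the same order as HSP21. Levels are not compared between genes here, since no transcript lengths of the files' annotation were used. The share of HSP21 in the counts of the 3 genes can be compared between libraries. It was 2.29%, 5.21% and 1.82% in SPD replicates 1 to 3, of 654, 1343 and 494 counts, against 6.70%, 4.32% and 3.43% in CK replicates 1 to 3, of 1090, 948 and 961 counts. It was lowest in the 2 libraries where the levels of all 3 genes were lowest, and SPD replicate 2 lay among the CK libraries. The exact Clopper-Pearson 95% interval of SPD replicate 3, 0.836% to 3.43%, lay below those of SPD replicate 2 (4.09% to 6.54%) and CK replicate 1 (5.29% to 8.35%), and overlapped those of CK replicates 2 and 3.

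In counts, there were 42.6, 18.2 and 53.9 class I counts for each HSP21 count in SPD replicates 1 to 3, against 13.9, 22.1 and 28.1 in CK replicates 1 to 3. The log2 ratio of HSP21 to the summed class I level was -5.12 ± 0.82 in SPD and -4.36 ± 0.52 in CK (SD, n = 3 each). The difference of SPD minus CK, -0.76, lay between the SD of the CK libraries and that of the SPD libraries in size. As a score over the chosen genes it was not tested. It was -1.22 without SPD replicate 2, -0.44 without SPD replicate 3 and -0.48 without CK replicate 1. From the lowest to the highest library, HSP21 spanned 6.61-fold and HSP16.9B 2.03-fold. Against equal shares of the library totals, the chi-square per degree of freedom was 29.8 in SPD and 8.97 in CK for HSP21. The median of genes of 1 to 5 CPM was 3.46 in SPD and 2.50 in CK. For HSP16.9B it was 139.8 in SPD and 5.08 in CK, beside medians of 12.5 and 5.16 for genes of 50 to 100 CPM. Span and chi-square both depend on the level of a gene, so neither ranks the 2 genes.

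**Figure D3:**
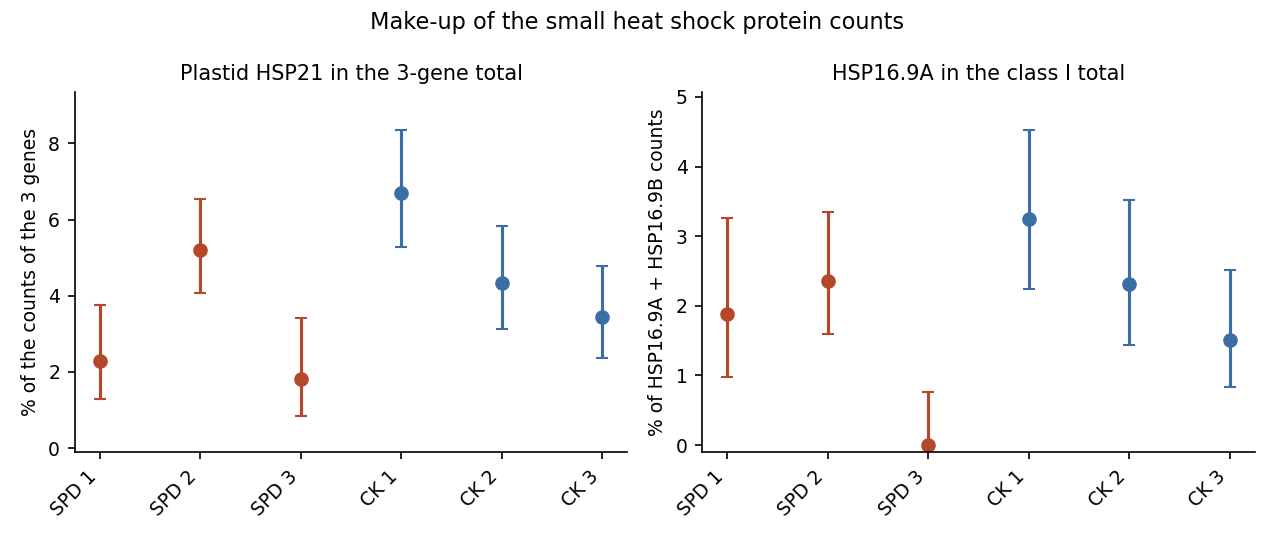
Share of HSP21 in the counts of the 3 genes (left) and of HSP16.9A in the class I counts (right), in percent, with 1 point for each library (SPD red, CK blue) and bars for exact 95% binomial intervals. HSP21 takes 1.82% in SPD replicate 3 and 6.70% in CK replicate 1, and HSP16.9A has no count in SPD replicate 3.

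The 3 genes varied together over the libraries. HSP16.9A and HSP21 put the 6 libraries in the same order, from CK replicate 1 at the top through SPD replicate 2, CK replicate 2, CK replicate 3 and SPD replicate 1 to SPD replicate 3. HSP16.9B had the same order from the fourth place down, with SPD replicate 2 and CK replicate 2 above CK replicate 1 at the top. In log2 CPM (prior count 2), Pearson's r of HSP16.9B with HSP21 was 0.96 (n = 6, two-sided exact permutation p = 0.0069, adjusted 0.0069 over the 3 pairs) and Spearman's rho was 0.83 (exact permutation p = 0.0583, adjusted 0.0583). For HSP16.9A with HSP21, r was 0.87 (exact permutation p = 0.0014, adjusted 0.0042) and rho was 1 (exact permutation p = 0.0028, adjusted 0.0083). For HSP16.9A with HSP16.9B, r was 0.82 (exact permutation p = 0.0056, adjusted 0.0069) and rho was 0.83 (exact permutation p = 0.0583, adjusted 0.0583). The counts do not show how reads shared by these class I genes were assigned. The part of such reads in this last relation was not tested.

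These relations were also computed with libraries left out. Where 2 were left out, they were not the same 2 for all pairs, so those values cannot be compared between pairs. Without SPD replicates 1 and 3, the 2 libraries farthest from the median of HSP16.9B, its r with HSP21 was 0.70 and rho was 0.40 in the 4 libraries left (exact permutation p = 0.333). The libraries left out are the extremes of HSP16.9B, so its range is narrower there, and these 4 libraries do not settle whether the relation rests on the 2 left out. Without CK replicate 1 and SPD replicate 3, the 2 farthest from the median of HSP16.9A, its r was 0.92 with HSP21 and 0.91 with HSP16.9B, each with a rho of 1. With 4 libraries the exact permutation p was 0.0833 for both pairs. Without SPD replicate 3 alone, r was 0.92 for HSP16.9B with HSP21, 0.94 for HSP16.9A with HSP21 and 0.81 for HSP16.9A with HSP16.9B. Without CK replicate 2 the exact permutation p adjusted over the 3 pairs was 0.05, no longer below the threshold, for HSP16.9B with HSP21 and with HSP16.9A. As deviations from the group means, which remove the difference between SPD and CK, r was 0.95, 0.83 and 0.78 for the same 3 pairs. All 3 genes spread more within SPD than within CK, so these values rest mainly on the SPD libraries. Within CK, HSP16.9B was highest in CK replicate 2, and HSP16.9A and HSP21 were highest in CK replicate 1.

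**Figure D4:**
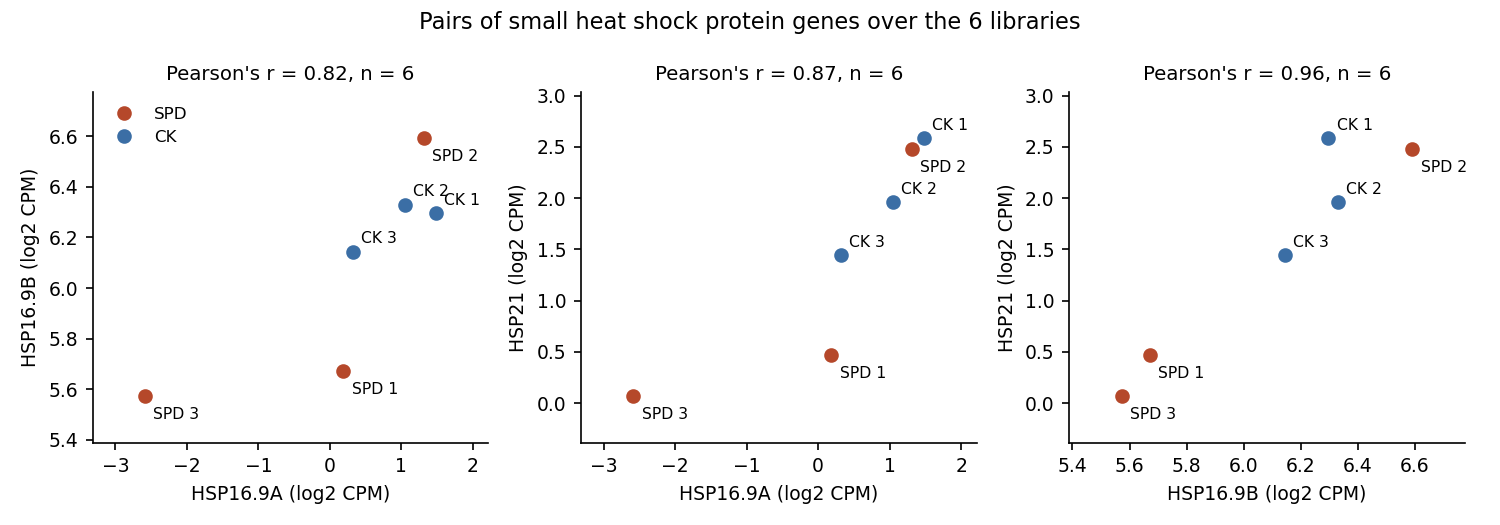
Each pair of genes over the 6 libraries, in log2 CPM (TMM scaled, prior count 2), with SPD in red and CK in blue and the library beside each point. SPD replicates 1 and 3 lie at the lower left of all 3 panels, SPD replicate 2 lies among or beyond the CK libraries, and SPD replicate 3 lies far to the left on the HSP16.9A axis, where it held no count.

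Other chaperone genes with a symbol were not called either, where edgeR called 0 of all 50136 genes tested. The table held 3 such genes, of which 2 were tested and none was called in either direction, with a median log2 fold change of 0.0056. PDI, a protein disulphide isomerase that helps storage proteins fold in the endoplasmic reticulum, had 2411, 2122 and 2624 CPM in SPD replicates 1 to 3, against 1975, 2167 and 2349 CPM in CK replicates 1 to 3. Its log2 fold change was 0.14 (SE 0.11, edgeR adjusted p = 0.997), and it was lowest in SPD replicate 2 among the SPD libraries. FKBP70, a peptidyl-prolyl isomerase of the FK506-binding family, had 70.5, 68.4 and 60.9 CPM in SPD, against 65.8, 69.6 and 83.2 CPM in CK, a log2 fold change of -0.13 (SE 0.13, edgeR adjusted p = 0.997). Its values stayed between 60.9 and 83.2 CPM, with 623 to 1079 counts, while HSP16.9B, with 485 to 1243 counts, ran from 47.4 to 96.2 CPM. The gene clpP, for a subunit of the plastid protease, had 0 to 1 counts in SPD and 0 to 2 counts in CK and was not tested.

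No gene of the other stress lists was called, where edgeR called 0 of all 50136 genes tested. Of the 6 antioxidant genes, all tested, 0 were called higher and 0 lower, with 3 positive and 3 negative values and a median log2 fold change of 0.0045. PER1, a peroxiredoxin of embryo and aleurone, had 96.3, 125.0 and 108 CPM in SPD replicates 1 to 3, against 149, 153 and 123 CPM in CK replicates 1 to 3, so that SPD replicates 1 and 3 were its lowest libraries too. Its log2 fold change was -0.36 (SE 0.14), with an unadjusted edgeR p of 0.023 and an edgeR adjusted p of 0.997. An unadjusted edgeR p under 0.05 was found in 3.59% of the genes tested. CATA, a catalase, had 813, 843 and 558 CPM in SPD, against 834, 795 and 796 CPM in CK, and was lowest in SPD replicate 3. Of the 3 genes for cold, drought and maturation, 2 were tested and none was called. COR410, a dehydrin, had 136, 151 and 157 CPM in SPD, against 154, 172 and 124 CPM in CK, and LTP3, a lipid transfer protein, had 664, 575.0 and 818 CPM in SPD, against 649, 596 and 605 CPM in CK. The third gene was EM, without counts.

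Genes with a profile like that of HSP16.9B and HSP21 were sought among 28090 other genes that averaged 5 CPM or more, 82 of them with a symbol. Likeness was Pearson's r of log2 CPM over the 6 libraries, given here as a description; all profiles come from the same 6 libraries. Of these genes, 574 (2.04%) had an r of at least 0.9 with HSP16.9B and 526 (1.87%) with HSP21. The 3 genes with a symbol most like HSP16.9B were WAXY, the granule-bound starch synthase of amylose (r = 0.89), and UBA2 and UBA1, ubiquitin-activating enzymes (r = 0.87 and 0.79). For HSP21 they were UBA1 (r = 0.90), WAXY (r = 0.84) and PER1 (r = 0.81). Their differences between libraries were smaller than those of the heat shock genes. UBA1 had 79.4, 86.7 and 67.1 CPM in SPD replicates 1 to 3, against 97.6, 88.7 and 85.1 CPM in CK replicates 1 to 3. WAXY had 1739.7, 2139.8 and 1899.6 CPM in SPD, against 2062, 2097 and 2014 CPM in CK, and SPD replicate 1, not replicate 3, was its lowest library. UBA2 had 89.5, 109 and 81.5 CPM in SPD, against 95.3, 99.3 and 106 CPM in CK.

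The closest identifiers without a symbol had a higher r. Only 82 of the 28090 genes compared had a symbol, so identifiers offered far more candidates, and the higher r is not a trait of theirs. TRAES3BF101600020CFD_g had an r of 0.996 with HSP16.9B and a larger swing, with 3.48, 8.98 and 2.93 CPM in SPD replicates 1 to 3, against 6.46, 6.70 and 6.02 CPM in CK replicates 1 to 3. Traes_2AS_45671299F had an r of 0.997 with HSP21 and a smaller swing, with 14.8, 23.3 and 14.3 CPM in SPD, against 23.4, 20.4 and 18.4 CPM in CK. Neither was called between SPD and CK (edgeR adjusted p = 0.997 for both), nor was any other gene tested. The files do not say what these identifiers encode.

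**Figure D5:**
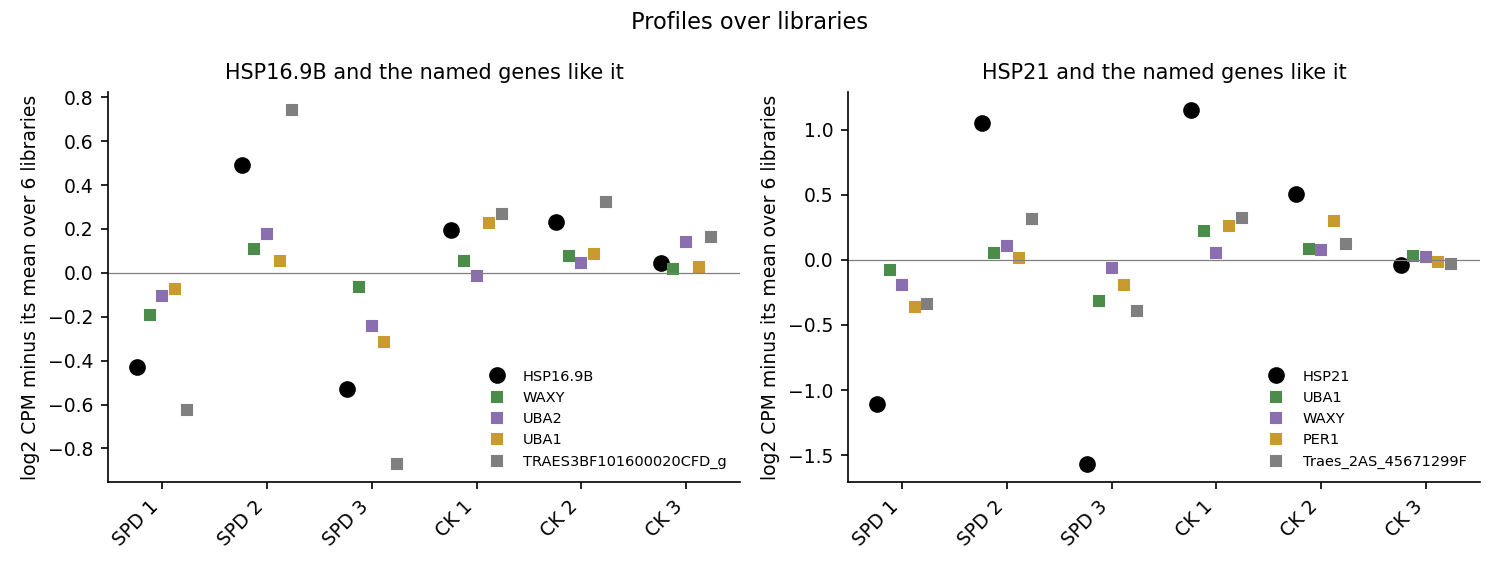
Profiles over the 6 libraries of HSP16.9B (left) and HSP21 (right) as black circles, and, as coloured squares, of the 3 genes with a symbol and the 1 identifier of highest r with each, set side by side within a library. The vertical axis is log2 CPM minus the gene's own mean over the 6 libraries. In SPD replicates 1 to 3 the squares lie on the same side of 0 as the heat shock gene, and all but those of TRAES3BF101600020CFD_g lie nearer to 0 than it does.

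Markers of other parts of the grain moved with some of these libraries. SPD replicates 1 and 3, where the 3 heat shock genes were lowest, had the 2 highest sums of green pericarp markers, 624 and 877 CPM, and the 2 lowest levels of PER1, which carried almost the whole sum of the embryo and aleurone markers. AMY1.1, of the same list, did not share that order. SPD replicate 2 lay within the range of the CK libraries in both sums. None of the 6 green pericarp genes or the 2 tested embryo and aleurone genes was called, where edgeR called 0 of all 50136 genes. The part of these markers in the levels of the small heat shock protein genes was not tested.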

How the data were processed

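The deposited data were raw counts per gene identifier for 6 libraries, which the authors left without normalisation. HISAT2 is named in the submitters' processing notes; counting program, genome build, annotation and strand setting: not given in the sources used here. RNA was, per the labels' protocols, extracted with TRIzol and libraries followed an Illumina protocol. The titles gave group and replicate number. No library was a copy of another, as any pair differed by a chi-square of 4.12 to 16.4 for each degree of freedom.

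The analysis used edgeR 4.0.16 in R 4.3.3: filterByExpr (min.count 10, min.total.count 15), TMM and the two-sided quasi-likelihood test without covariates, with p-values adjusted by Benjamini and Hochberg over 50136 genes and a threshold of 0.05. Single-gene CPM are scaled by TMM, and marker sums by library size alone. Log2 CPM used a prior count of 2. Correlations, intervals and plots were made with Python 3.11.15, scipy 1.17.1 and matplotlib 3.10.9. The exact permutation test of a correlation used all 720 orders of the 6 libraries. Alternatives used DESeq2 1.42.0 and limma 3.58.1. The gene test and the likeness search were tested on simulated data. For the gene test, the genes changed in the simulation averaged at least 5 CPM. HSP16.9A and HSP21 lie below that level, so the simulation does not show how well changes in them would be found.

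The genes, lists and tests were chosen with earlier results of these data known. Named were the 3 genes, the listed chaperone and stress genes, and for HSP16.9B and HSP21 the 3 genes with a symbol and the 1 identifier of highest r. Gene sequences and heat shock elements were not analysed here.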

Additional observations from a re-analysis of the deposited data

How the results depend on the processing

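The log2 fold changes of the 3 genes stayed negative and uncalled in all 45 alternative values, under 3 other scalings, 2 other filters, robust estimation, the Wald test of DESeq2, limma-voom, a block for the replicate number and with each library left out. Adjusted p values of these ran from 0.498 to 1. Leaving out single libraries, they ran from -1.87 to -0.18 for HSP16.9A, from -0.64 to -0.054 for HSP16.9B and from -1.93 to -0.27 for HSP21. The count of called genes was 0 with edgeR (1800 at an unadjusted p under 0.05), 0 with limma-voom, 3 with the Wald test of DESeq2 (1895 at an unadjusted p under 0.05), none a small heat shock protein gene, and 0 to 1 with 1 library left out, the 1 being without CK replicate 3. The difference in the log2 ratio of HSP21 to class I stayed negative, from -1.22 to -0.44 with 1 library left out.

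Deviations from the group means of same-numbered libraries had correlations of 0.016, -0.058 and -0.029, so the numbers gave no sign of pairing. With 3 libraries in each group and no word on it in the labels, this check cannot exclude a shared source. With the replicate number as a block the log2 fold changes were -1.25 for HSP16.9A, -0.31 for HSP16.9B and -1.0 for HSP21, and 0 genes were called.

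With 1 library left out, r ran from 0.92 to 0.998 for HSP16.9B with HSP21, from 0.85 to 0.98 for HSP16.9A with HSP21 and from 0.81 to 0.95 for HSP16.9A with HSP16.9B. Without the 2 libraries farthest from the median of the first gene, not the same 2 for all pairs, they were 0.70, 0.92 and 0.91. The exact permutation p values in the 4 libraries left, adjusted over the 3 pairs, were 0.333, 0.125 and 0.125. As deviations from the group means, r was 0.83 for HSP16.9A with HSP21 and 0.78 for HSP16.9A with HSP16.9B, values that rest mainly on the SPD libraries. Under library size alone, a prior count of 0.5 and CPM without log, all 3 correlations kept an adjusted p under the threshold. HSP16.9A had 0 to 33 counts and HSP21 had 9 to 73, and both also differed between libraries beyond counting error.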
